A study of Mus musculus with 2 samples.

Results

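Genes of cholesterol synthesis, fatty acid synthesis and their control were examined in mouse NIH 3T3 cells, an embryonic fibroblast line, transfected with a plasmid for ATCE1-C-del or with an empty vector. ATCE1, now called Creb3l4, belongs to the CREB3 group of bZIP transcription factors, and its C-terminally deleted form was described as nuclear. The ATCE1-C-del group had 1 array and the empty vector group had 1 array. Both carried RNA taken 48 hours after lipid-mediated transfection of the same line with the same backbone, named pHA-CMV or pCMV-HA in the labels, in which the CMV promoter drives the insert. Expression was transient, and the efficiency of transfection was not given in the sources used here. Selection began from 38 symbols. A probe set was taken where the array annotation gave it exactly 1 symbol and that symbol was listed. This found 36 genes with 72 probe sets, out of 12394 genes and 22626 probe sets. No probe set of the annotation table listed Acat2 or Insig1, alone or among several symbols. They therefore have no signals or ratios here and enter only the search of promoter windows.

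Cells make cholesterol from acetyl-CoA through mevalonate, farnesyl diphosphate, squalene and lanosterol, and they make fatty acids from the same precursor through malonyl-CoA. Both routes are driven by the SREBP transcription factors, which are held in the endoplasmic reticulum by SCAP and INSIG while sterols are plentiful and are cut free in the Golgi when sterols fall. CREB3 family proteins, to which ATCE1 belongs, are also made as membrane-bound precursors that the same Golgi proteases can cut, and a form without the C-terminus bypasses that step. SREBPs act on promoters together with NF-Y, a factor that binds CCAAT boxes, and in some promoters with CREB.

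RefSeq promoter windows of GRCm38.p6, from 250 bases before to 50 bases after a gene's start, were at hand for 29 of the 38 genes. Letters were searched on both strands. The CCAAT box, CCAAT, was in the windows of 23 of these 29 genes (79.3%), where 41.1% of all 27025 genes with a window and 37.4% of all 32851 windows held it. Among sterol synthesis enzymes 14 of 15 held it, and among fatty acid enzymes 4 of 7. The cAMP response element of CREB proteins, TGACGTCA, was found only for Elovl5 among these genes (3.45%, against 2.03% of all genes), and its core TGACGT for Elovl5, Hmgcs1 and Insig1 (10.3%, against 8.37%). A sterol regulatory element, searched as TCACNCCAC, was found only for Hmgcs1 (3.45%, against 1.44%). The letters TGACGTGG, read by CREB3 family proteins, were in 0 of the 29, against 0.714% of all genes. The full element TGACGTCA contains the core on both strands, so Elovl5 counts in both. A match is a description of letters and not a site. Of the windows, 3 are shown, chosen because they belong to measured genes and hold the core or the most CCAAT boxes, and capitals mark the core or full cAMP response element, the sterol regulatory element and the CCAAT box, with ACGTCA and ATTGG being the core and the box on the other strand.
Elovl5, chr9:77917115-77917414, plus strand: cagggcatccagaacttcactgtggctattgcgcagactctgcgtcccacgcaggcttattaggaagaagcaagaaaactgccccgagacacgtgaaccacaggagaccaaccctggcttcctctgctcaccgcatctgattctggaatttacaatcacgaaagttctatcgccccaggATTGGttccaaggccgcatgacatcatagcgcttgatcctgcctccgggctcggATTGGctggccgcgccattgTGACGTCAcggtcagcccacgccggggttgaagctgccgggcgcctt
Hmgcs1, chr13:119690101-119690400, plus strand: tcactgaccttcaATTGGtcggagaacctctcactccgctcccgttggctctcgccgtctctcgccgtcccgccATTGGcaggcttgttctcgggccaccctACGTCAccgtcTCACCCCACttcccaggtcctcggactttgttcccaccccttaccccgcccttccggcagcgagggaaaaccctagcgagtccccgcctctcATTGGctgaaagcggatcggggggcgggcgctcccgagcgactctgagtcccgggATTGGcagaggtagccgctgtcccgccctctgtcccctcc
Mvk, chr5:114444019-114444318, plus strand: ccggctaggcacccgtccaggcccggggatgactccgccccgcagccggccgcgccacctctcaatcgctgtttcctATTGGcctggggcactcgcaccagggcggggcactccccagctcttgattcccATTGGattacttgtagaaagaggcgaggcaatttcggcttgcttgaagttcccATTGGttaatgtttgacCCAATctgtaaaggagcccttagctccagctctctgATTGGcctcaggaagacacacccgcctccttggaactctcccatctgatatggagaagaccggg

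Values below are MAS5 signals, a linear brightness per probe set, and log2 ratios, in which ATCE1-C-del is divided by empty vector. A probe set was called measured at or above its array's floor, the median signal of that array (77.4 for ATCE1-C-del and 75.9 for empty vector), on at least 1 array, and the brightest measured probe set stood for its gene. As each group had 1 array, no replicate error or test could be had, and changes were counted by size. The spread between the 2 brightest probe sets of a gene gave 1 log2 ratio an SD of 0.20 over 2451 genes, which leaves out the variation between cultures. Of the 36 genes, 35 were measured, each above the floor on both arrays, and 63 of their 72 probe sets were measured. Fibroblast markers were present, with 11 of 11 on the array measured and summed signals of 37401 with ATCE1-C-del, against 37314 with empty vector. Single markers differed more than these sums. Their log2 ratios on brightest probe sets ran from -0.44 for Pdgfrb to 0.16 for Thy1, with a median of 0.053. The single probe set of Creb3l4 read 18.0 with ATCE1-C-del, against 20.7 with empty vector, both under the floor, and so leaves the labels unchecked, since where its probes lie on the truncated form is unknown here.

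Sterol and fatty acid genes differed little between ATCE1-C-del and empty vector cells, and so did most measured genes. None of the 35 passed 1.5-fold in either direction, where 2.01% of the 6807 measured genes did. With so low a share over all genes, the lack of such changes among 35 does not set these genes apart. At 1.2-fold, only Acaca was higher, where 9.42% of all measured genes were, and Lpl, Npc1, Dhcr7, Pmvk and Fads1 were lower, where 12.3% were. These shares depend on brightness. With genes split into 3 equal classes by signal, 28 of the 35 lay in the brightest. There 2 of the 28 passed 1.2-fold either way, against 12.3% of all genes in that class. In the middle class 2 of 5 passed, against 21.4%, and in the dimmest 2 of 2, against 30.0%. Of the 35 genes, 16 lay above 0 and 19 below (54.3%, against 51.3% of all measured genes), with a median log2 ratio of -0.0081 beside -0.0061 over all measured genes. The middle 95% of all genes ran from -0.48 to 0.45, and Lpl was the only one of the 35 outside it. Scaled to the hybridisation controls, an alternative added with its effect known, the median of all genes moved to 0.23 and the 1.2-fold counts to 15 higher and 0 lower of the 35, where 44.1% of all genes were higher and 2.09% lower. Under it Lpl lay at -0.26, Npc1 at -0.15, Dhcr7 at -0.086, Pmvk at -0.070, Fads1 at -0.032 and Acaca at 0.60. Relative to that shift the median of the 35 genes was 0.0034. The controls read spiked RNA and centred on a log2 ratio of -0.25, and 17 of 18 read lower with ATCE1-C-del. Which scaling holds for the cells was not tested. Fewer cells that express a gene and less of its RNA per cell cannot be told apart in these bulk samples.

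**Figure D1:**
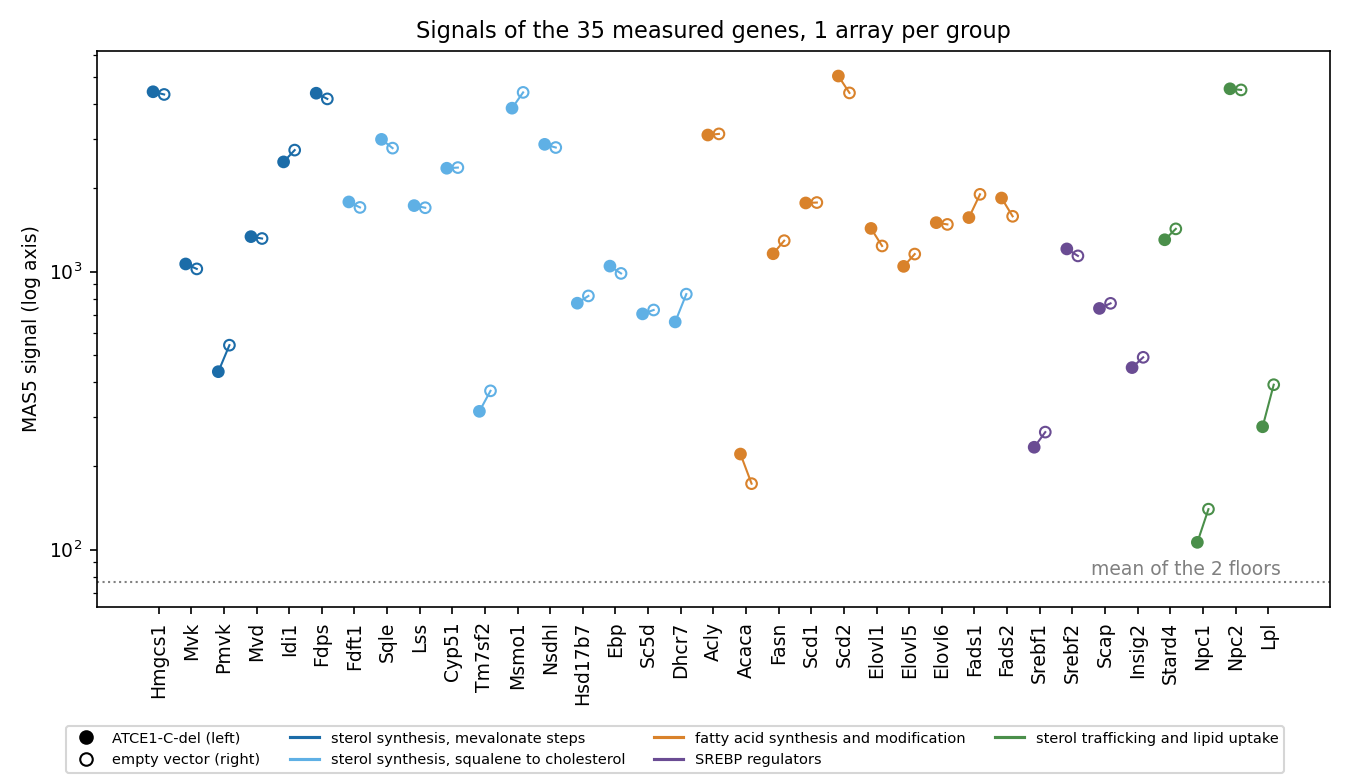
MAS5 signal (log axis) of the brightest probe set of each of the 35 measured genes, with the ATCE1-C-del array as a filled point on the left and the empty vector array as an open point on the right, 1 array each. The lines are near level for most genes, with visibly lower ATCE1-C-del points for Lpl, Npc1, Dhcr7 and Pmvk and a higher one for Acaca.

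The early mevalonate steps were close to level, apart from Pmvk. Hmgcs1, the synthase that makes HMG-CoA and whose window held both the core and the sterol element, read 4439.6 with ATCE1-C-del, against 4341 with empty vector, a log2 ratio of 0.032. Its other probe sets lay at 0.11, 0.13 and -0.11. Its signals were nearly equal on both arrays and its probe sets fell on both sides of 0. Mvk, mevalonate kinase, read 1066 with ATCE1-C-del, against 1023 with empty vector (0.059), and its second probe set read 733 with ATCE1-C-del, against 619 with empty vector (0.24). Both probe sets of Mvk were higher, 1.04-fold on the brighter and 1.18-fold on the dimmer. Pmvk, phosphomevalonate kinase, read 437 with ATCE1-C-del, against 544 with empty vector, a log2 ratio of -0.32 (1.25-fold lower) on its only probe set. It had the lowest ratio of these steps and no second probe set to set beside it. Mvd, the decarboxylase that makes isopentenyl diphosphate, read 1337 with ATCE1-C-del, against 1316 with empty vector (0.022), with its other probe set at 0.043. Idi1, the isomerase that follows, read 2483 with ATCE1-C-del, against 2738 with empty vector (-0.14), with its other probe set at -0.077. Both probe sets of Idi1 were lower, by less than the 0.20 spread between probe sets over 2451 genes. The brighter was past the 0.11 spread of the 21 genes here that had another probe set. Fdps, which makes farnesyl diphosphate, read 4387 with ATCE1-C-del, against 4185 with empty vector (0.068), and its second probe set was far under the floor on both arrays. Of these 6 genes, 4 lay above 0, with a median log2 ratio of 0.027.

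From squalene onwards the ratios ran from -0.33 for Dhcr7 to 0.10 for Sqle. Fdft1, squalene synthase, read 1782 with ATCE1-C-del, against 1703 with empty vector (0.066), with its second measured probe set at 0.011. Sqle, the squalene epoxidase, read 2992 with ATCE1-C-del, against 2783 with empty vector (0.10), and had the highest ratio of all sterol enzymes. Lss, lanosterol synthase, read 1729 with ATCE1-C-del, against 1698 with empty vector (0.025), with another probe set at 0.16. These first enzymes of the branch were all slightly higher, by less than the spread between probe sets. Cyp51, the lanosterol demethylase, read 2356 with ATCE1-C-del, against 2369 with empty vector (-0.0081), and its other probe sets went both ways, at -0.14 and 0.18. Tm7sf2, a sterol reductase that acts after it, read 314 with ATCE1-C-del, against 373 with empty vector (-0.25). Msmo1, which oxidises the C4 methyl groups, read 3875 with ATCE1-C-del, against 4416 with empty vector (-0.19). Both were lower on single probe sets, short of 1.2-fold. Nsdhl and Hsd17b7 complete C4 demethylation with Msmo1. Nsdhl read 2872 with ATCE1-C-del, against 2797 with empty vector (0.038). Hsd17b7 read 770.2 with ATCE1-C-del, against 818 with empty vector (-0.087), with its second probe set on the other side, at 0.059. The demethylation genes thus did not share a direction. Ebp, the sterol isomerase, read 1047 with ATCE1-C-del, against 986 with empty vector (0.087). Sc5d, the desaturase after it, read 705 with ATCE1-C-del, against 728 with empty vector (-0.047), while its dimmer probe set lay at 0.21. Dhcr7, which reduces 7-dehydrocholesterol to cholesterol, read 659 with ATCE1-C-del, against 830.2 with empty vector, a log2 ratio of -0.33 (1.26-fold lower). It was the lowest of the sterol enzymes and was read by 1 probe set, and 13.7% of all measured genes had a ratio at least as far from 0. Of these 11 genes, 5 lay above 0 and 6 below, with a median of -0.0081.

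Fatty acid genes spread to both sides, with Acaca and Fads1 at the ends. Acly, which makes cytosolic acetyl-CoA from citrate for both routes, read 3102 with ATCE1-C-del, against 3131.5 with empty vector (-0.013), and its other measured probe sets lay at 0.17 and -0.20. Acaca, acetyl-CoA carboxylase, which commits carbon to fatty acids, read 221 with ATCE1-C-del, against 173 with empty vector, a log2 ratio of 0.35 (1.28-fold higher). This was the highest ratio of the 35 genes, on a single dim probe set. Of 3 equal classes of genes by signal it lay in the dimmest, where 30.0% of all genes passed 1.2-fold in one direction or the other. Fasn, the fatty acid synthase that uses its product, read 1160.3 with ATCE1-C-del, against 1293 with empty vector (-0.16). These consecutive enzymes lay on opposite sides of 0.

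Desaturases and elongases, which shape the chain after synthesis, gave small ratios that often depended on the probe set. Scd1, a stearoyl-CoA desaturase, read 1767 with ATCE1-C-del, against 1773 with empty vector (-0.0051), with a second probe set at 0.17. Scd2, its close relative, read 5057.5 with ATCE1-C-del, against 4397 with empty vector (0.20, 1.15-fold higher), and further probe sets lay at 0.17 and 0.020. All 3 probe sets of Scd2 were higher. Probe sequences were not used here, so signal shared between these similar transcripts cannot be told apart. Fads1 and Fads2, the delta-5 and delta-6 desaturases of polyunsaturated fatty acids, lay on opposite sides. Fads1 read 1565 with ATCE1-C-del, against 1898 with empty vector (-0.28, 1.21-fold lower) on 1 probe set. Fads2 read 1841 with ATCE1-C-del, against 1582 with empty vector (0.22, 1.16-fold higher), but its second probe set was near level, at 0.017. Elovl1, an elongase of very long saturated chains, read 1431 with ATCE1-C-del, against 1237 with empty vector (0.21), while its other probe sets were lower, at -0.12 and -0.13. Its direction therefore rests on the choice of probe set. Elovl5, the elongase of polyunsaturated chains whose window held the full cAMP response element, read 1045 with ATCE1-C-del, against 1157 with empty vector (-0.15, 1.11-fold lower). Its second probe set read 785 with ATCE1-C-del, against 922 with empty vector (-0.23), so both were lower. Elovl6, which extends palmitate to stearate, read 1501 with ATCE1-C-del, against 1479 with empty vector (0.021), with its other probe set at -0.11.

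**Figure D2:**
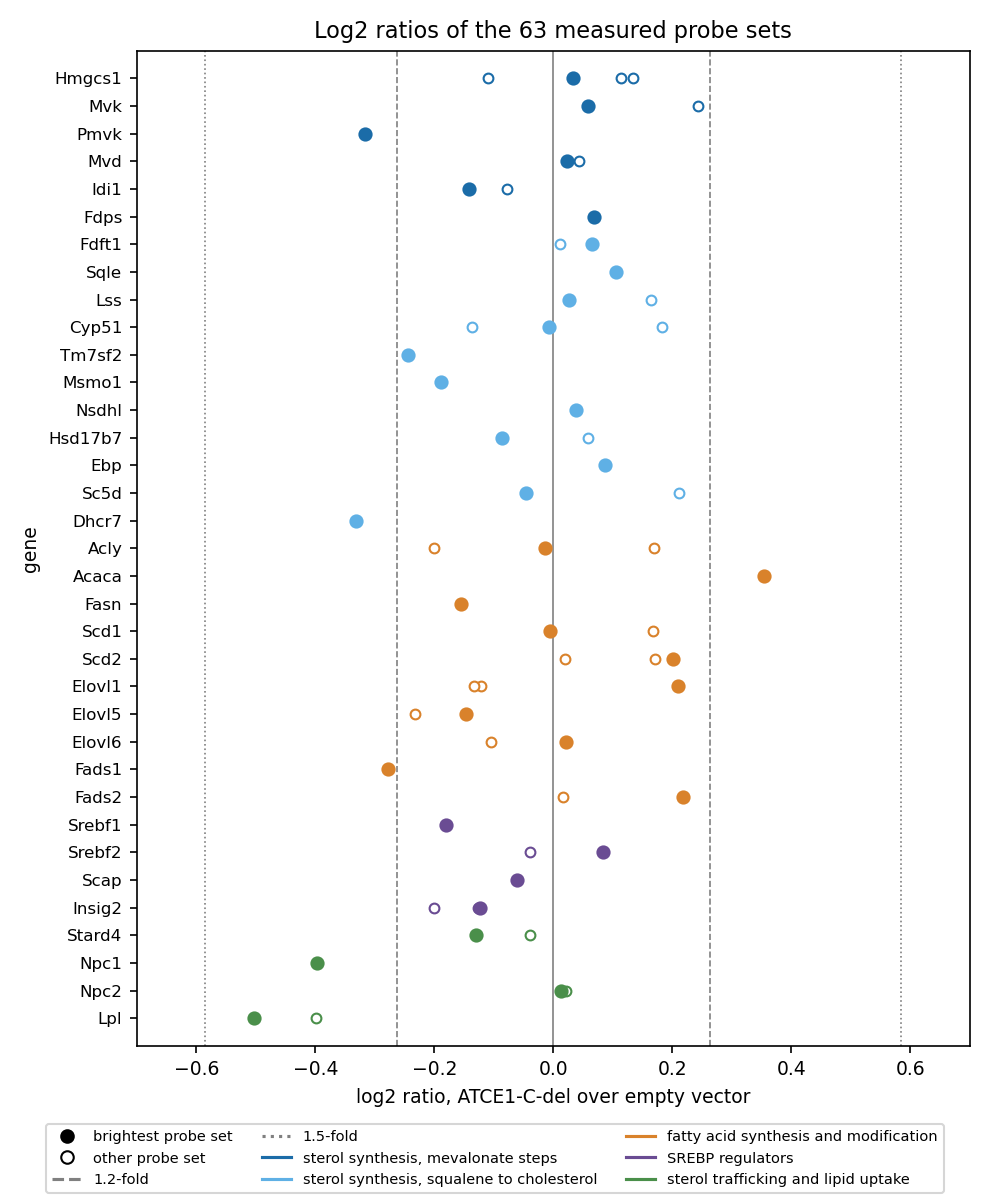
Log2 ratio, ATCE1-C-del divided by empty vector, for each of the 63 measured probe sets, by gene, with the brightest probe set filled and the others open; dashed and dotted lines mark 1.2-fold and 1.5-fold. No point reaches 1.5-fold, both probe sets of Lpl lie left of the lower 1.2-fold line, and the probe sets of Elovl1, Acly, Sc5d and Cyp51 straddle 0.

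Set side by side, sterol and fatty acid enzymes had medians near 0, and their order changed with the summary used. The 17 measured sterol enzymes centred on a median log2 ratio of 0.022, while their mean of -0.051 had the opposite sign; 9 lay above 0 and 8 below. For the 10 fatty acid enzymes the median was 0.0080 and the mean 0.041, and 5 lay above 0 and 5 below. The sterol minus fatty acid difference was 0.014 between medians and -0.091 between means. The sign of the difference of medians turned under quantile normalization (-0.031) and lowess (-0.016), so the order of these lists was not resolved. The sterol enzymes ran from -0.33 to 0.10, with an SD of 0.14 between genes, and the fatty acid enzymes from -0.28 to 0.35, with an SD of 0.20. At 1.2-fold, 0 sterol enzymes were higher and 2 lower, and 1 fatty acid enzyme was higher and 1 lower, against 9.42% and 12.3% of all measured genes. Most of these genes were bright: 15 of the 17 sterol enzymes and 9 of the 10 fatty acid enzymes lay in the brightest of the 3 signal classes. In that class the SD between genes was 0.12 for the sterol enzymes, 0.18 for the fatty acid enzymes and 0.19 for all 2173 genes, a difference between lists that was not tested.

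**Figure D3:**
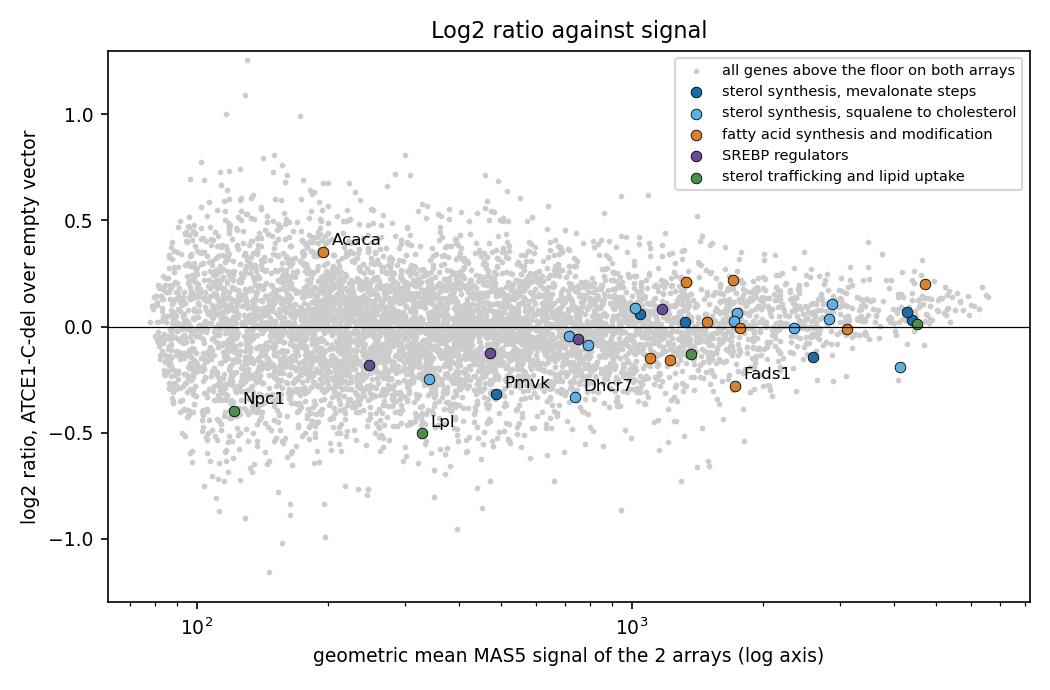
Log2 ratio, ATCE1-C-del divided by empty vector, against the geometric mean MAS5 signal of both arrays (log axis), with all genes above the floor on both arrays in grey and the 35 genes coloured by role; 2 genes lie beyond the axis limit of 1.3. The grey cloud is widest at low signal, where Acaca and Npc1 lie, and the other 4 named genes past 1.2-fold all lie below 0.

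The regulators of the pathway were near level. Srebf2, the SREBP that mainly serves sterol genes, read 1207 with ATCE1-C-del, against 1139.7 with empty vector (0.083), with its second probe set at -0.039. Srebf1, which mainly serves fatty acid genes, read 233.5 with ATCE1-C-del, against 265 with empty vector (-0.18, 1.13-fold lower) on 1 probe set, which does not separate its isoforms. Scap, the escort of SREBPs to the Golgi, read 737.5 with ATCE1-C-del, against 769 with empty vector (-0.061). Insig2, which retains SCAP in the endoplasmic reticulum, was lower on all 3 of its probe sets. These read 452, 383 and 158 with ATCE1-C-del, against 492, 440.0 and 173 with empty vector, at log2 ratios of -0.12, -0.20 and -0.13. The 4 measured regulators had a median of -0.092, beside -0.0061 over all measured genes. None of the 4 passed 1.2-fold either way, where 21.7% of all measured genes did, a share that so few genes cannot be set apart from. Transcript levels of these genes do not report SREBP cleavage.

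Genes of sterol traffic and lipid uptake held the lowest ratios. Lpl, lipoprotein lipase, which releases fatty acids from circulating triglycerides, read 277 with ATCE1-C-del, against 392 with empty vector, a log2 ratio of -0.50 (1.42-fold lower). Its second probe set read 101 with ATCE1-C-del, against 133 with empty vector (-0.40, 1.32-fold lower). Both probe sets of Lpl were lower by more than the 0.20 spread, and 3.80% of all measured genes had a ratio at least as far from 0. The brightest lay in the middle signal class, where the middle 95% of ratios ran from -0.47 to 0.41. Signals of the second fell in the range of the dimmest class, where it ran from -0.53 to 0.51. Lpl is also an adipocyte gene: 0 of 7 adipocyte markers on the array were measured, their summed signals were 104 with ATCE1-C-del, against 87.1 with empty vector, and none was at 0 on both arrays. Npc1, the lysosomal membrane transporter of cholesterol, read 106 with ATCE1-C-del, against 139.8 with empty vector (-0.40, 1.32-fold lower) on 1 probe set not far above the floor. Npc2, its soluble partner, read 4550.2 with ATCE1-C-del, against 4507.5 with empty vector (0.014), with its other probe set at 0.022. The partners therefore differed in ratio, with Npc1 in the dimmest signal class, where the middle 95% of ratios ran from -0.53 to 0.51. Stard4, a cytosolic sterol carrier, read 1303 with ATCE1-C-del, against 1426 with empty vector (-0.13), with its other probe set at -0.039. Abca1, the exporter of cholesterol to apolipoproteins and a target of LXR, was under the floor on all 3 probe sets, at 22.6, 40.1 and 14.7 with ATCE1-C-del, against 28.4, 66.3 and 8.80 with empty vector. The 4 measured genes of this group had a median of -0.26, which was -0.039 on second probe sets, where Npc1 has none.

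Agreement between probe sets limits these readings. Among the 21 genes that had another probe set above both floors, 14 had the brightest such set on the same side of 0 (66.7%, against 60.2% of 2451 genes) and 7 on the other side. The SD of 1 log2 ratio from this source was 0.11 for these 21 genes. Using the 0.20 of all genes, 10 of the 35 ratios (28.6%, against 34.3% of all measured genes) were larger than this SD, namely Pmvk, Tm7sf2, Dhcr7, Acaca, Scd2, Elovl1, Fads1, Fads2, Npc1 and Lpl. Of these 10, 6 had no other probe set, Lpl, Scd2 and Fads2 had their further ones on the same side, and those of Elovl1 lay on the opposite side.

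Other genes of lipid metabolism were taken from lists that do not overlap with the 38. Of 20 further sterol genes, 12 were on the array and 8 measured, with 3 above 0 and 5 below and a median log2 ratio of -0.040. Over all measured genes 51.3% lay below 0, with a median of -0.0061. Past 1.2-fold, 0 further sterol genes were higher and 1 lower, where 9.42% and 12.3% of all measured genes were. The 1 lower was Mylip, an LXR-induced ubiquitin ligase that degrades the LDL receptor. Mylip read 942 with ATCE1-C-del, against 1213.5 with empty vector (-0.37, 1.29-fold lower). Lipa, lysosomal acid lipase, lay at -0.22 with its other probe sets at -0.18 and -0.49, and Dhdds, of dolichol synthesis, at 0.11. Of 33 further fatty acid and glycerolipid symbols, some of them older names of other listed genes, 25 were on the array and 16 measured. Of these 16, 6 lay above 0 and 10 below, with a median of -0.054. Past 1.2-fold on brightest probe sets, 0 were higher and 1 lower, against the same 9.42% and 12.3% of all measured genes. The 1 lower was Lpin1, a phosphatidate phosphatase of triglyceride synthesis. Lpin1 read 330 with ATCE1-C-del, against 460 with empty vector (-0.48, 1.39-fold lower), and another probe set lay at -0.37. Dimmer probe sets above both floors went past 1.2-fold for Acss2 and Me1. That of Acss2 read 184 with ATCE1-C-del, against 316.5 with empty vector (-0.79), while its brightest lay at -0.14. Me1 lay at 0.39 on its dimmer probe set and at 0.025 on its brightest. Gpam, which starts glycerolipid synthesis, lay at -0.26 and Lpcat3, which remodels phospholipids, at -0.26.

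**Figure D4:**
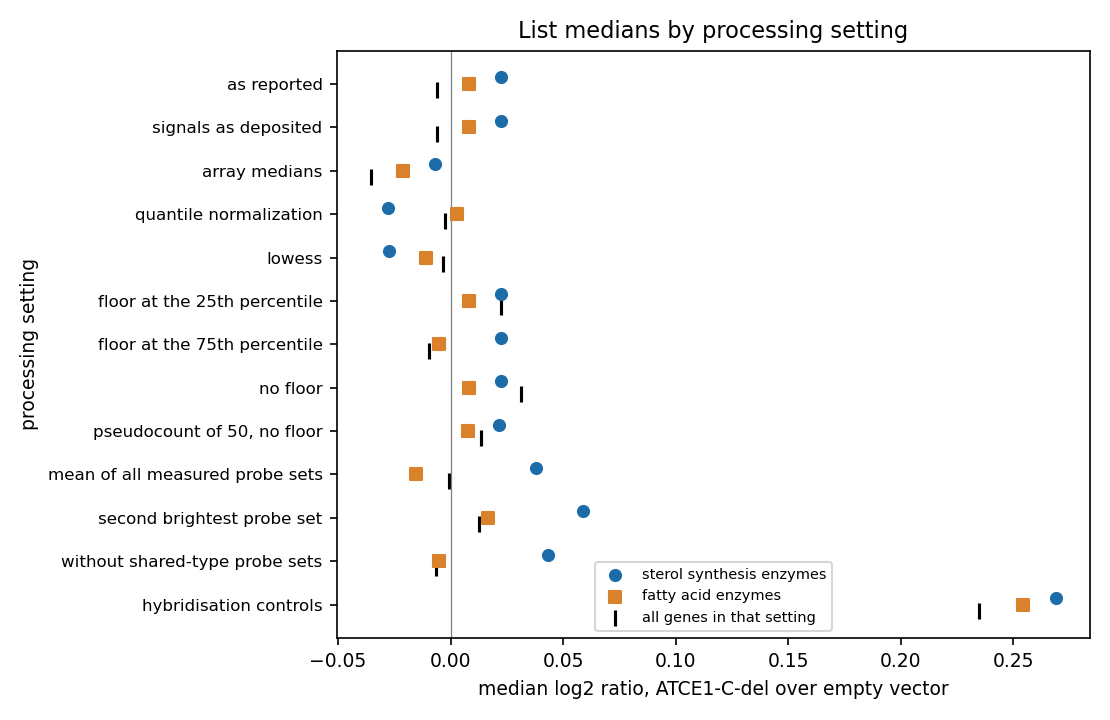
Median log2 ratio, ATCE1-C-del divided by empty vector, for sterol synthesis enzymes (circles), fatty acid enzymes (squares) and all genes (bars) under each processing setting. Outside the hybridisation control scaling both lists stay within -0.028 to 0.059, and that scaling moves all 3 medians together to between 0.23 and 0.27.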

How the data were processed

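RNA from 1 ATCE1-C-del and 1 empty vector culture was read on Affymetrix arrays. The authors deposited intensity values, which are MAS5 signals per the submitters' processing notes and linear by their range, with version, target and detection calls not given in the sources used here. After trimming 2% at either end, both arrays had a mean of 250.1. The 64 control probe sets were left out. An annotation table gave 1 symbol to 20393 probe sets, several to 691 and none to 1606. Signals were divided by the trimmed mean, raised to each array's median and converted to log2 ratios; a probe set under both floors was given no ratio. All members are named, plus up to 3 genes of each further list, and Acss2 and Me1 for a dimmer probe set. Members and lists were chosen with earlier results of these data known. Alternatives changed scaling, floor, pseudocount (50), lowess span (0.3) and probe set choice. The procedure was tested on simulated data. Their noise was smaller than the spread between probe sets, and their changed single genes moved more than any member did. That test therefore does not cover single ratios as small as those here. The number of arrays limits the precision. Software was matplotlib 3.10.9, statsmodels 0.14.6, scipy 1.17.1, pandas 2.3.3 and numpy 2.4.6 under Python 3.11.15.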

Additional observations from a re-analysis of the deposited data

How the results depend on the processing

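No paired analysis was possible because each group had 1 array, and for the same reason no replicate could be left out. Over 11 alternatives other than scaling to the hybridisation controls, Lpl stayed between -0.53 and -0.35 in log2 ratio and Dhcr7 between -0.36 and -0.31 over the 10 that gave it a value. The sterol median turned to -0.028 with quantile normalization and -0.027 with lowess, and the median of all members to -0.058 and -0.054. With the floor at the 25th percentile or no floor, Abca1 entered at -0.73, which made 1 member past 1.5-fold and moved the sterol traffic and uptake median to -0.40. A 75th percentile floor, losing Acaca, Npc1 and Srebf1, gave that median as -0.13 and 0 members past 1.2-fold higher (5.61% of all genes). On second brightest probe sets, held by 21 members, it was -0.039, with 0 members past 1.2-fold higher and 1 lower (13.0% of all genes each way). Scaled to the hybridisation controls, added after the data were seen, 15 members were past 1.2-fold higher (44.1% of all genes), 0 lower (2.09%) and 1 past 1.5-fold, Lpl was at -0.26 and Dhcr7 at -0.086, with medians of 0.27 for sterol, 0.25 for fatty acid, 0.15 for regulator and -0.017 for traffic genes and 0.24 for all members. The share of all genes past 1.5-fold was 2.01% as reported, 11.0% with the floor at the 25th percentile, 24.7% with no floor, 0.759% with the floor at the 75th percentile, 0.589% with the pseudocount, 3.30% on second probe sets and 5.81% with the hybridisation controls. Signals near the floor limit Abca1, Npc1 and Acaca most.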
